A study of Mus musculus with 4 samples.

Results

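A set of 10 genes that mark regulatory T cells was followed in TH9 cultures with and without the transcription factor BATF3. They are Foxp3, Ikzf2, Ikzf4, Lrrc32, Nrp1, Izumo1r, Gpr83, Entpd1, Nt5e and Klrg1. They were picked by symbol as established regulatory T cell genes, and all 10 were found among the 25509 genes of the count table. Naive CD4+ T cells from mouse spleen, sorted as CD25-negative, CD62L-high and CD44-low, had received anti-CD3, anti-CD28, TGF-beta, IL-4 and TL1A over 72 h, a condition the labels call TH9. One group of 2 libraries came from wild-type (WT) cells and the other group of 2 from Batf3-/- cells, and every library had the same stimulation. The labels give neither the sex or age of the mice nor the exons that the Batf3 allele lacks. They do not say whether the 2 replicates of a genotype were separate mice or cultures, so the spread behind each p-value is only that between these libraries. The WT and Batf3-/- titles of each replicate number share a prefix, which differs between the numbers and is not explained. The labels do not say that libraries with the same number belong together, and ratios within a number are given as a description.

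Regulatory T cells are CD4+ cells that restrain immune responses, and the forkhead factor FOXP3, encoded on the X chromosome, is the regulator that defines them. TGF-beta with IL-2 can induce FOXP3 in activated naive cells, whereas IL-4 together with TGF-beta favours the IL-9 secreting TH9 state. Part of the regulatory programme is shared with recently activated conventional T cells, among it the IL-2 receptor gene Il2ra and Ctla4, and the other genes considered here differ in how closely they follow FOXP3. BATF3 is a small leucine zipper factor of the AP-1 group that binds DNA together with JUN proteins.

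Foxp3 is the gene the comparison below turns on, so its start regions are shown. RefSeq promoter windows on GRCm38.p6, each from 250 bases before to 50 after an annotated start, matched 6 of the 10 genes with 8 windows, of which Foxp3 has a pair. Both lie on the plus strand, at chrX:7579426-7579725 and chrX:7580233-7580532, and are written 5′ to 3′. Capitals mark the match to a STAT motif, the factor family that carries the IL-2 signal.

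Foxp3 upstream start: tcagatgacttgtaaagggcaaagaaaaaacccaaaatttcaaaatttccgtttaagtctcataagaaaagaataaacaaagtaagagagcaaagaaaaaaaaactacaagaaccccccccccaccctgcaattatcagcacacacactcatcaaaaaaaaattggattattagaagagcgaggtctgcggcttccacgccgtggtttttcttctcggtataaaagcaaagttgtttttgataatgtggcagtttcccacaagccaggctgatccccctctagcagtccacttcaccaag

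Foxp3 downstream start: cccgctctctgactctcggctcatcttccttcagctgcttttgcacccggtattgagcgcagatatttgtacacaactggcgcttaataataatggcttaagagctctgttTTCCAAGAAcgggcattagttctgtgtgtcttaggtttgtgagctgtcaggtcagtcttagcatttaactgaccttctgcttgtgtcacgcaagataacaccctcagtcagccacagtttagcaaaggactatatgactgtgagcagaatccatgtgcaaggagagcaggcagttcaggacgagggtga

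In these windows 4 motifs were searched on both strands: TGANTCA for AP-1, TGACGTCA for the cAMP response element, TTCNNNGAA for STAT factors and GTAAACA (reverse strand TGTTTAC) for forkhead factors. Over all 32851 windows of this length they occurred in 7.81%, 1.79%, 8.30% and 3.65%. The downstream Foxp3 window held 1 STAT match, TTCCAAGAA, starting at base 112 counted from its 5′ end. This was the only match to any of the 4 motifs in the 8 windows, which also cover Nrp1, Gpr83, Izumo1r, Nt5e and Entpd1. A match describes letters only, and the binding sites of BATF3 were not measured here.

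Library depth ranged from 15624874 to 31098059 estimated counts, and the filter on low counts left 12135 genes for testing. Batf3, the targeted gene, gave 61.7 and 60.5 CPM (counts per 1000000 of the scaled library total) in the WT libraries but 0.535 and 0.517 CPM in those labelled Batf3-/-. General T cell genes (Cd3e, Cd4, Lck, Thy1 and 6 others) summed to 3136 to 3240 CPM per library. Defining genes of other cells were at 0 in all libraries for B and plasma cells (Ms4a1, Mzb1), myeloid cells (Lyz2, S100a8, S100a9) and NK cells (Ncr1, Klrb1c, Tyrobp). The summed markers were 0.252 to 0.429 CPM for 9 NK genes, 2.08 to 2.88 CPM for 12 myeloid and dendritic genes, 24.1 to 27.0 CPM for 8 B cell genes, 27.7 to 31.1 CPM for 7 platelet and endothelial genes and 7.37 to 9.35 CPM for 4 CD8 genes. Most of the last 3 sums came from Ebf1 and Cd79b, from Pecam1 and from Cd8b1. The replicates of each genotype differed in sex-linked RNA and so were not made from the same RNA or the same mix of mice. Libraries numbered 1 held Y-linked RNA with almost no Xist, and those numbered 2 held both. Xist was at 0.214 and 0.0944 CPM in the libraries numbered 1 (WT, Batf3-/-) and at 166 and 144 CPM in those numbered 2, while 4 Y-linked genes summed to 344, 243, 146 and 182 CPM in the same order. In bulk RNA, fewer cells that express a gene and less RNA per cell cannot be told apart.

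Of the 10 genes, 9 were detected in every library and passed the filter on low counts. The exception was Klrg1, an inhibitory lectin-like receptor of highly differentiated effector and regulatory cells. The WT libraries had 0 and 1 counts of it and the Batf3-/- libraries 0 and 0, below the limit of 3 counts that corresponds to 0.0965 to 0.192 CPM, and no fold change was computed. These limits cover counting error only. Regulatory T cells were not sorted from the cultures, so every level is that of the whole culture.

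Levels of different genes were compared per kilobase of annotated exons. Izumo1r, which encodes folate receptor 4, was the most abundant in both genotypes, at 92.6 and 99.1 CPM per kilobase in WT and 125 and 106 CPM per kilobase in Batf3-/- cells. Ikzf4, encoding the Ikaros family factor EOS that works with FOXP3 in gene repression, came next at 21.7 and 25.1 CPM per kilobase in WT and 25.9 and 28.1 CPM per kilobase in Batf3-/- cells. These genes stood clear of each other and of all that followed. Foxp3 itself was at 2.14 and 3.87 CPM per kilobase in WT and 6.37 and 4.59 CPM per kilobase in Batf3-/- cells.

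In WT the order went on with Gpr83 (mean 6.99 CPM per kilobase), Nt5e (6.16), Lrrc32 (4.44), Foxp3 (3.01), Nrp1 (2.23), Entpd1 (1.21) and Ikzf2 (0.718). Neighbours whose libraries overlapped were Gpr83 with Nt5e and Foxp3 with Nrp1. In Batf3-/- cells Foxp3 ranked 4 (5.48 CPM per kilobase), and its libraries overlapped with those of both Gpr83 and Nt5e, as did those of Nt5e with Lrrc32 and of Entpd1 with Ikzf2. The plot of levels per kilobase shows this order. Averaged over the genotypes, Izumo1r lay at percentile 96.9 of all tested genes, Ikzf4 at 84.2, Foxp3 at 42.5 and Ikzf2 at 16.5. With the longest transcript as gene length, Foxp3 ranked 7 of 9 in WT, below Nrp1, whose annotated exons sum to 9785 bases against 3645 in its longest transcript.

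**Figure D1:**
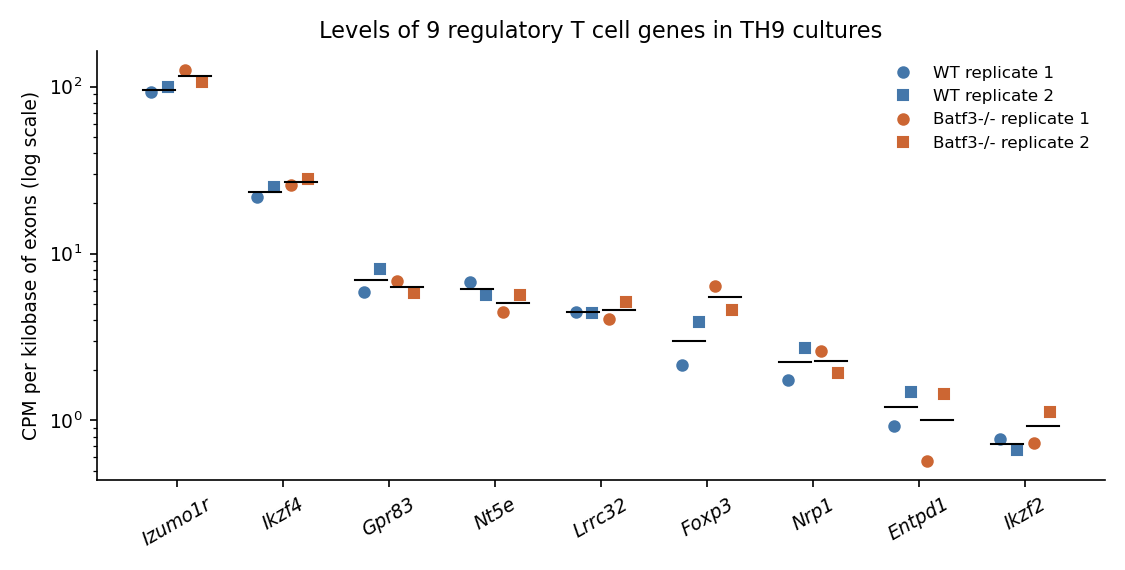
Level of 9 genes in each library, in CPM per kilobase of exons on a log axis, ordered by the WT mean, with circles for replicate 1, squares for replicate 2, blue for WT, orange for Batf3-/- and black lines for means of 2 libraries. Izumo1r and Ikzf4 stand clear of the rest, and Foxp3 moves from 3.01 to 5.48 CPM per kilobase.

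Batf3-/- and WT cultures were then compared gene by gene. With all 4 libraries Foxp3 was higher in both Batf3-/- libraries, as were Ikzf4 and Izumo1r. Its 95% interval, not adjusted over genes, left out 0, and those of the other 8 genes included it. Foxp3 also had the largest fitted difference of the 9 genes. That rank rested on single libraries. Leaving out WT replicate 1 gave log2 fold changes of -0.65 for Entpd1 and 0.50 for Foxp3, and leaving out Batf3-/- replicate 1 gave 0.64 for Ikzf2 and 0.61 for Foxp3. By the edgeR quasi-likelihood test (adjusted p under 0.05) 0 of the 9 genes passed, as with DESeq2 and limma-voom, and 0.132% of all tested genes did. The count among them was 1 at an unadjusted p under 0.05, that of Foxp3, against 4.8% of all tested genes. Log2 fold changes were positive for 6 of the 9 genes, with a median of 0.04, and for 48.4% of all tested genes, with a median of -0.01. The 2 Batf3-/- libraries lay above both WT libraries for 3 of 9 genes (Foxp3, Ikzf4 and Izumo1r; 18.2% of all tested genes did) and below them for 0 of 9 (15.6% of all tested genes). For 7 of the 9 the larger gap between replicates of 1 genotype exceeded the fitted difference between genotypes, as it did for 79.6% of all tested genes. The exceptions were Foxp3 and Izumo1r.

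**Figure D2:**
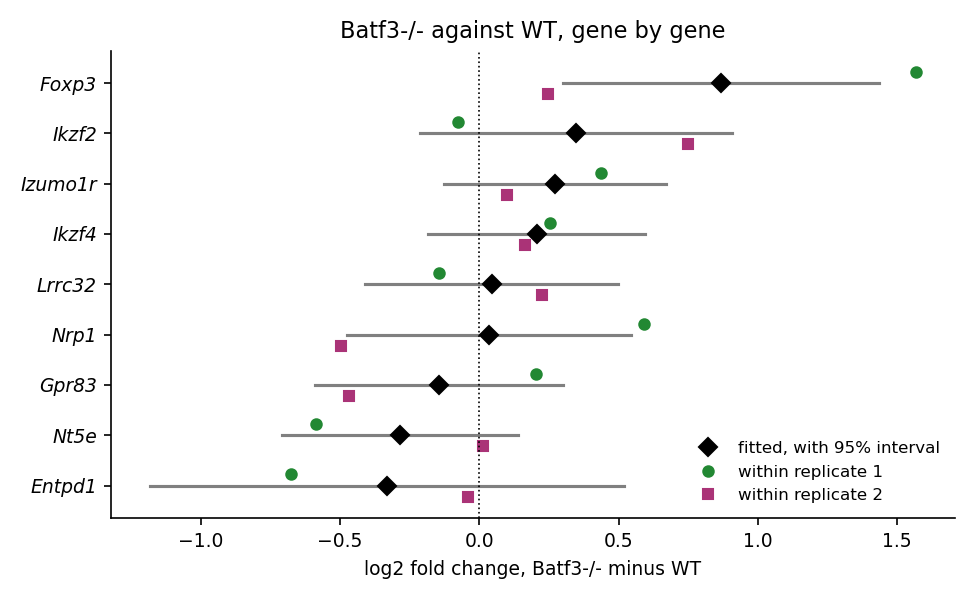
Log2 fold change of Batf3-/- against WT for the 9 tested genes, as fitted values with 95% confidence intervals from edgeR (diamonds, lines) and as the log2 ratio within the libraries numbered 1 (circles) and 2 (squares). Foxp3 lies at 0.87 and did not pass the test. The intervals are not adjusted over genes, and those of the other 8 genes include 0.

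Foxp3 (ENSMUSG00000039521.12, GRCm38, chrX:7573644-7595245, plus strand, protein coding) had 228.82 and 485.69 estimated counts in the WT and 927 and 325.2 in the Batf3-/- libraries. These correspond to 9.81 and 17.7 CPM for WT and to 29.2 and 21.0 CPM for Batf3-/-. WT replicate 1 was the lowest library and Batf3-/- replicate 1 the highest, and the genotypes did not overlap. The means were 13.8 ± 5.58 and 25.1 ± 5.76 CPM (SD, n = 2 each). The fitted difference was 1.83-fold (log2 fold change 0.87, SE 0.269, 95% interval 0.30 to 1.44). Its unadjusted p was 0.00493 and its adjusted p 0.593 by edgeR's quasi-likelihood test, so Foxp3 did not pass. With the replicate number as a block in the same test it passed (log2 fold change 0.91, adjusted p = 0.00542, edgeR). In that fit the spread of a typical gene was taken entirely from the other genes, and its own carried no weight. Whether this held for Foxp3 itself is not given, and the labels do not settle whether the numbers pair the libraries.

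The size of the Foxp3 difference depended on which libraries were set against each other. Within the libraries numbered 1 the log2 ratio was 1.57, and within those numbered 2 it was 0.25. Between the WT libraries alone Foxp3 differed by a log2 ratio of -0.85 (replicate 1 minus 2), close to the difference between genotypes, and between the Batf3-/- libraries by 0.47. With WT replicate 1 left out, the log2 fold change of Foxp3 was 0.50 (adjusted p = 0.617, edgeR). With WT replicate 2 left out it was 1.36 and passed (adjusted p = 6.31e-04, edgeR), with a single WT library left whose spread had to be taken from the other group. Foxp3 is X-linked and the numbers 1 and 2 also separate the libraries by Xist; the part of this split in the Foxp3 values was not tested.

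The Foxp3 counts were shared with a neighbour. In GRCm38 the 3′ end of Foxp3 overlaps that of Ccdc22 (chrX:7593809-7605517), a gene on the opposite strand that encodes a subunit of an endosomal sorting complex, and 590 exonic bases belong to both annotations. The Foxp3 count was fractional in 3 of 4 libraries, and in each of these the fraction was made up by Ccdc22. The counts of both genes summed to 712 and 1192 in WT and to 1796 and 732 in Batf3-/- libraries, whole numbers within 0.01. In Batf3-/- replicate 1, the library with the highest Foxp3 level, both counts were already whole. Some reads were thus divided between these genes by estimation in at least 3 libraries, although the kit keeps strand, and how many is not given. Whole counts in Batf3-/- replicate 1 do not show that no reads were shared there. No other of the 10 genes had a fractional count.

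The WT libraries held 20.7 and 25.7 CPM of Ccdc22 and the Batf3-/- libraries 27.3 and 26.3 CPM, again without overlap (log2 fold change 0.21, SE 0.210, adjusted p = 0.958, edgeR). Foxp3 took 32.1% and 40.7% of the summed count in WT and 51.6% and 44.4% in Batf3-/- libraries. The sum itself was 30.5 and 43.4 CPM in WT and 56.5 and 47.3 CPM in Batf3-/- cells, with no overlap between genotypes. Counted as 1 gene, a choice made after the data were seen, the pair had a log2 fold change of 0.49 (adjusted p = 0.958, edgeR). A sum with a gene that differs less gives a smaller fold change by construction, so this value bounds neither gene. The part of the read division in the Foxp3 difference was not tested. The 5′ neighbour Ppp1r3f, also on the opposite strand and sharing 266 exonic bases, had whole counts throughout, at 5.49 and 5.39 CPM for WT and 6.92 and 9.31 CPM for Batf3-/-. Flicr, a noncoding RNA annotated over 853 exonic bases of Foxp3 on the same strand, was not analysed here.

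**Figure D3:**
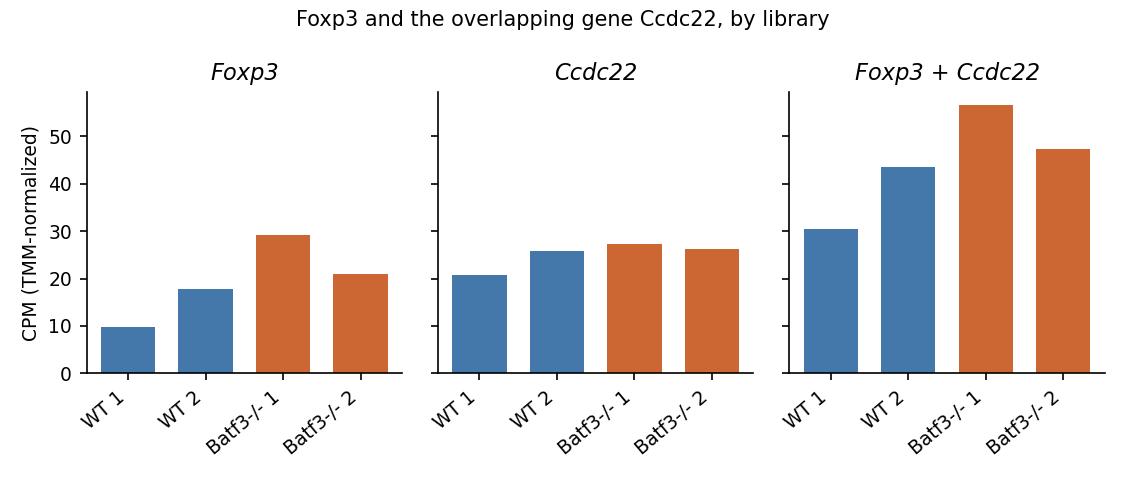
Foxp3, Ccdc22 and their sum in CPM for each library, as bars from 0, blue for WT and orange for Batf3-/-. Foxp3 ranges from 9.81 to 29.2 CPM and Ccdc22 from 20.7 to 27.3 CPM, and the sum is lowest in WT replicate 1 and highest in Batf3-/- replicate 1.

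Among the transcription factors that act with FOXP3, Ikzf4 (chr10:128630843-128645991) stood at 130 and 151 CPM in the WT libraries and at 155 and 169 CPM in Batf3-/- cells. The Batf3-/- libraries were the higher ones, but the whole range was narrow (log2 fold change 0.21, 95% interval -0.19 to 0.60, adjusted p = 0.958, edgeR). Ikzf2 (chr1:69531214-69687245), encoding HELIOS, a factor typical of regulatory cells that arise in the thymus, was at 8.96 and 7.73 CPM in the WT libraries and at 8.50 and 13.0 CPM in Batf3-/- cells. Only Batf3-/- replicate 2 stood out (log2 fold change 0.35, 95% interval -0.21 to 0.91). Ikzf2 lies on the same chromosome as Batf3, at a distance of 121 Mb. Of the 5 Ikaros family genes, 2 had positive log2 fold changes and 0 passed the test. Ikzf1, encoding IKAROS, stood at -0.08, Ikzf5 at -0.12 and Ikzf3, encoding AIOLOS, at -0.27.

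Lrrc32 (chr7:98489283-98502181) encodes GARP, which holds latent TGF-beta on the surface of activated regulatory T cells. It was at 20.9 and 20.7 CPM in the WT libraries and at 18.9 and 24.2 CPM in Batf3-/- cells, so that the WT libraries lay between the Batf3-/- ones (log2 fold change 0.04, 95% interval -0.41 to 0.50). In the list of 14 genes that handle latent TGF-beta, 10 were tested, 6 were positive, 0 passed the test, and the median was 0.12. The Tgfb1 level was 311 ± 81.9 CPM for WT and 357 ± 6.10 CPM for Batf3-/- (SD, n = 2 each). Furin, the protease that processes its precursor, stood at 458 and 713 CPM in the WT libraries and at 775 and 840 CPM in the Batf3-/- libraries (log2 fold change 0.46, SE 0.219, adjusted p = 0.958, edgeR). Itgav and Tgfbr3, an integrin chain that activates TGF-beta and a co-receptor, stood at -0.11 and -0.19 on the log2 fold change scale.

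Nrp1 (chr8:128358604-128503363), a semaphorin and VEGF co-receptor found on thymus-derived regulatory cells, varied more between replicates than between genotypes. Its level was 17.0 and 26.7 CPM in WT and 25.7 and 18.9 CPM in Batf3-/- cells. The log2 ratio was 0.59 within the libraries numbered 1 and -0.50 within those numbered 2, and the fitted value was 0.03 (95% interval -0.48 to 0.54). Of 15 genes for semaphorin and VEGF ligands and receptors, Nrp1 included, 12 were tested, 10 were positive and 0 passed the test (median 0.17). Sema4a, which encodes a ligand of NRP1 on other immune cells, had 81.6 ± 8.33 CPM for WT and 101 ± 14.9 CPM for Batf3-/- (log2 fold change 0.31). Sema4d, Vegfa and Plxnd1 had log2 fold changes of 0.02, 0.14 and 0.33.

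Izumo1r (chr9:14885814-14903949) and Gpr83 (chr9:14860210-14870789), an orphan-type G protein-coupled receptor gene enriched in regulatory T cells, are neighbours with 15024 bases between them. Izumo1r had 215 and 230 CPM in WT and 291 and 246 CPM in Batf3-/- cells, and the genotypes did not overlap (log2 fold change 0.27, 95% interval -0.13 to 0.67, adjusted p = 0.958, edgeR). Gpr83 had 30.1 and 41.2 CPM in WT and 34.7 and 29.7 CPM in Batf3-/- cells, with overlapping genotypes (log2 fold change -0.14, 95% interval -0.59 to 0.30). Within the libraries numbered 1 both had a positive log2 ratio, 0.44 and 0.20. Within those numbered 2 the ratios were 0.10 for Izumo1r and -0.47 for Gpr83.

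Entpd1 and Nt5e encode the ectoenzymes CD39 and CD73, which act in sequence to turn extracellular ATP into adenosine. Entpd1 (chr19:40612366-40741602) had 120 and 228 counts in the WT and 102 and 125 in the Batf3-/- libraries, or 5.14 and 8.31 against 3.21 and 8.08 CPM. Batf3-/- replicate 1 was the lowest library, and the interval was the widest of the 9 genes (log2 fold change -0.33, 95% interval -1.18 to 0.52). Nt5e (chr9:88327197-88372092) was at 57.8 and 48.3 CPM in the WT libraries and at 38.5 and 48.8 CPM in Batf3-/- cells. WT replicate 1 was the highest and Batf3-/- replicate 1 the lowest, while the libraries numbered 2 were nearly equal (log2 ratio 0.01). The fitted log2 fold change was -0.28 (95% interval -0.71 to 0.14, adjusted p = 0.958, edgeR).

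The wider adenosine list held 15 genes, of which 11 were tested, 4 were positive and 0 passed the test, with a median of -0.21. Its most abundant genes besides Nt5e were Slc29a1, a nucleoside transporter (log2 fold change 0.15), the adenosine kinase gene Adk (-0.25) and Enpp1, an ectonucleotide enzyme (-0.21). The list median was -0.35 within the libraries numbered 1 and -0.03 within those numbered 2.

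Of 21 inducers and partners of Foxp3, all were tested, 10 were positive and 0 passed the test. The median was -0.01, as for all tested genes, and ran from -0.13 to 0.14 when each library was left out in turn. Ets1, Satb1, Stat5a and Stat5b, the most abundant of them, had log2 fold changes of 0.07, -0.09, 0.02 and 0.03. Values in this list ran from -0.34 to 0.46.

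Other surface genes of regulatory T cells spanned a wide range of levels, and the 4 most abundant are named here. Il2ra, the high-affinity subunit of the IL-2 receptor, stood at 2893 and 3846 CPM in the WT libraries and at 3259 and 3052 CPM in the Batf3-/- libraries (log2 fold change -0.09). The naive cells had been sorted as negative for its product CD25 before stimulation. Ctla4, an inhibitory receptor gene, had a log2 fold change of -0.16, Tnfrsf9 of 0.13 and Il2rb of 0.22. Of 18 tested surface genes, 12 were positive and 0 passed the test (median 0.15). One symbol of that list, Folr4, is an older name of Izumo1r and has no row of its own.

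Effector genes of regulatory T cells gave 10 positive values among 12 tested, with 0 past the test and a median of 0.08. The median was 0.30 within the libraries numbered 1 and -0.11 within those numbered 2. Lgals1, Capg, Tgfb1 and Socs2, the most abundant, had log2 fold changes of -0.05, 0.14, 0.20 and 0.01.

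Of 9 genes that FOXP3 is known to repress, 8 were tested, 1 was positive, 0 passed the test, and the median was -0.15. Satb1, Tcf7 and Ptpn22 had log2 fold changes of -0.09, -0.05 and -0.22, and Lef1 of 0.05. Named after its value was seen, Il2 had the lowest value of the list at -0.63, from 5.19 ± 0.680 CPM for WT and 3.19 ± 1.47 CPM for Batf3-/-. The list median was -0.38 within the libraries numbered 1 and -0.04 within those numbered 2.

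Among 12 targets and components of IL-2 signalling 9 were positive (median 0.18) and 1 passed the test. This was Socs1, an inhibitor of cytokine receptor signalling, which rose from 58.3 and 79.2 CPM in WT to 156 and 137 CPM in the Batf3-/- libraries (log2 fold change 1.09, SE 0.200, adjusted p = 0.0296, edgeR). A correction for each library's trend on transcript GC content took its adjusted p to 0.118 (log2 fold change 0.82, edgeR), and leaving out Batf3-/- replicate 1 took it to 0.301 (0.99, edgeR). Il2ra, Il2rb, Lta and Cish, the most abundant of this list, had values of -0.09, 0.22, -0.07 and 0.24.

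DESeq2 and limma-voom also called Socs1 alone in these lists. At an unadjusted p under 0.05 (edgeR), which 4.8% of all tested genes reached, the count was 3 of 18 surface genes, 3 of 12 IL-2 signalling genes, 1 of 21 inducers and partners, 1 of 10 TGF-beta genes, 1 of 12 semaphorin genes and 0 in the Ikaros, effector, adenosine and FOXP3-repressed lists. Several list medians moved with the processing. After the GC correction they were 0.04 for the semaphorin list, 0.10 for the surface genes, -0.11 for the adenosine list, -0.09 for the repressed genes and 0.12 for the IL-2 list. The Ikaros median went from -0.08 to 0.06 with this correction and ran from -0.15 to 0.01 as each library was left out. Leaving out each library in turn gave -0.25 to -0.07 for the adenosine list, -0.27 to 0.00 for the repressed genes and -0.03 to 0.31 for the IL-2 list. The same ranges were -0.0016 to 0.40 for the semaphorin list, 0.04 to 0.17 for the TGF-beta list, -0.08 to 0.26 for the effector genes, 0.14 to 0.18 for the surface genes and 0.03 to 0.24 for the 9 regulatory T cell genes.

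**Figure D4:**
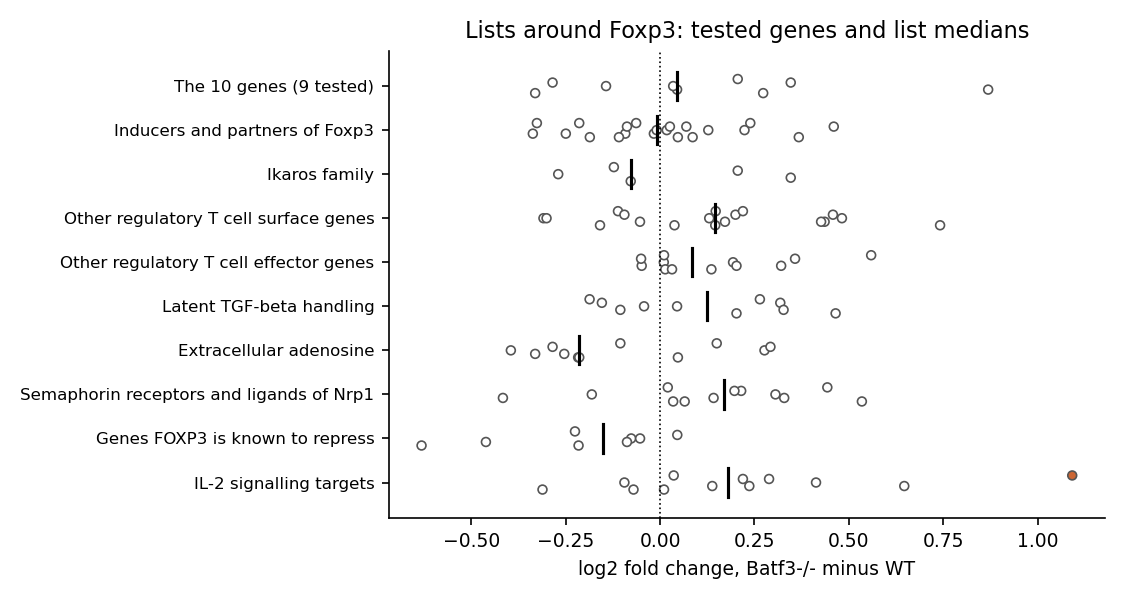
Log2 fold changes of Batf3-/- against WT for the tested genes of 10 lists, with a point for each gene, filled where its adjusted p was under 0.05, and vertical bars for list medians. Socs1 is the single filled point, and the list medians lie between -0.21 and 0.18.

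The genes whose pattern over the 4 libraries was most like that of Foxp3 were sought among 9459 genes of at least moderate abundance. The measure was the root mean square difference of log2 CPM after each gene was centred on its own mean, with a median of 0.591 over these genes. The closest were Jund (0.103), Serpinc1 (0.109), H2afx (0.110), Junb (0.111) and Pex14 (0.140). Jund and Junb encode AP-1 subunits, H2afx a histone variant, Serpinc1 antithrombin and Pex14 a peroxisomal import protein. None of the 5 passed the test. Jund stood at 127 and 213 CPM in the WT libraries and at 312 and 262 CPM in Batf3-/- cells. WT replicate 1 was lowest and Batf3-/- replicate 1 highest, as for Foxp3, an order that follows from picking genes by likeness to Foxp3. With 4 libraries and 9459 genes to choose from, a close match does not link a gene to Foxp3. Among the regulatory T cell genes the nearest to Foxp3 was Izumo1r at 0.424, and Nrp1 (0.435) and Ikzf4 (0.466) followed.

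The transcript GC content of these genes was 67.1% for Jund, 62.6% for Junb, 62.3% for H2afx, 52.2% for Pex14 and 46.8% for Serpinc1, against 55.0% for Foxp3 and a median of 49.8% over tested genes. Of these 5 genes, Serpinc1 lay below that median, and the part of GC content in their pattern was not tested. After the GC correction the log2 fold change of Foxp3 was 0.75 (adjusted p = 1.00, edgeR), that of Izumo1r 0.07 and that of Lrrc32 -0.22. Without the correction these values were 0.87 for Foxp3, 0.27 for Izumo1r and 0.04 for Lrrc32, so that of Lrrc32 changed sign. Ikzf2, whose transcript has a GC content of 40.1%, went from 0.35 to 0.55.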

How the data were processed

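RNA was sequenced from 4 libraries of stimulated mouse CD4+ T cells, from polyadenylated RNA with a stranded kit and 75 bp single-end reads, per the labels' protocols. The deposited values are expected counts per gene, which split a read among the genes it fits. Per the submitters' processing notes, the authors made them with RSEM 1.2.25 and STAR 2.5.0 (build GRCm38). For strand setting and annotation release, nothing is stated in the sources used here.

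Estimated counts were rounded and tested with edgeR 4.0.16 (R 4.3.3), using filterByExpr (minimum count 10, total 15), TMM scaling, robust glmQLFit and glmQLFTest, two-sided, genotype as the only term, Benjamini-Hochberg adjustment over all 12135 tested genes at 0.05. SE is the log2 fold change divided by the root of F. CPM are TMM-normalized, and ratios within a replicate number use a prior count of 0.5. The 92 spike-in entries, at 0 in all libraries, were left out. Genotype and replicate number came from the sample titles. Replicates differed by far more than sampling noise (chi-square per degree of freedom 63.0 in WT and 22.8 in Batf3-/-).

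Positions, exon lengths and transcript GC came from GENCODE M21 (GRCm38), matched by identifier for 12105 of 12135 tested genes. Promoter windows are RefSeq's on GRCm38.p6. Other settings were other scalings and filters, DESeq2 1.42.0, limma-voom (limma 3.58.1), legacy fitting, leaving out each library, the replicate number as a block, a GC correction by lowess, and scaling without X and Y genes. The summed Foxp3 and Ccdc22 count was added after seeing the data. Named genes were the 10, Batf3, the up to 4 most abundant and any called gene of each list, and the 5 genes most like Foxp3; Ccdc22, Ppp1r3f and Il2 were picked with their values in view. The 10 genes and the lists were chosen with earlier results of these data known. The code was tested on simulated data.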

Additional observations from a re-analysis of the deposited data

How the results depend on the processing

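Over the 9 tested genes and 17 other settings, 145 of 153 log2 fold changes kept their direction. Most settings refitted the same 4 libraries, so this share does not measure how well directions would repeat in new samples. The values for Foxp3 include those of its sum with Ccdc22. The 8 that turned came with a library left out or with the GC correction. With upper-quartile scaling, DESeq2's size factors, other filters, legacy fitting, voom, DESeq2 or scaling without X and Y genes, Foxp3 stayed between 0.86 and 0.92 and did not pass. In the main fit the counts of genes past the threshold were 16 over all genes, 0 of the 9 and 1 (Socs1) over the other lists. The first was 29 with DESeq2, 12 with the GC correction and 14 to 17 with the other scalings, filters, legacy fitting and voom. Leaving out 1 library at a time gave 18 to 553 over all genes (62 without WT replicate 1, 553 without WT replicate 2, 38 without Batf3-/- replicate 2), 0 to 1 of the 9, 0 to 10 over the lists (10 without WT replicate 2, 0 without Batf3-/- replicate 1) and 0.50 to 1.36 for Foxp3. The direction turned for Nrp1 without WT replicate 1 (-0.26) and Batf3-/- replicate 1 (-0.21; range -0.26 to 0.40), Gpr83 without WT replicate 2 (range -0.36 to 0.10), Entpd1 without WT replicate 2 (0.05) and Batf3-/- replicate 1 (0.26; range -1.07 to 0.26), and Lrrc32 without Batf3-/- replicate 2 (range -0.13 to 0.22) and with the GC correction (-0.22). The GC correction left 0 called list genes. The cause was not tested.

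The titles of each replicate number share an unexplained prefix across genotypes, but the numbers are not said to mark a shared animal or day. In both genotypes the numbers also split the libraries by Xist (0.214 and 0.0944 CPM for number 1, 166 and 144 CPM for number 2). The replicate 1 minus 2 differences of WT and Batf3-/- cells correlated at 0.105 over 12135 genes, which are not independent. With the replicate block in edgeR, 112 genes passed, 1 of the 9 (Foxp3, 0.91, adjusted p = 0.00542) and 2 list genes (Socs1 and Socs3). With the replicate block and the GC correction, 88 passed, again 1 of the 9 (Foxp3, 0.77, adjusted p = 0.025) and 1 list gene, and Lrrc32 was at -0.22. With Foxp3 and Ccdc22 counted as 1 gene and the replicate block, 111 genes passed, 0 of the 9 and 2 list genes, and the pair was at 0.51 (adjusted p = 0.302). These fits have 1 residual degree of freedom per gene and borrow their spread across genes, for a typical gene entirely. With the longest transcript as length, Foxp3 ranked 7 of 9 in WT, in place of 6. Counts were lowest for Entpd1 (102 to 228 per library), and its interval of -1.18 to 0.52 was the widest of the 9 genes.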
